A study of Mus musculus with 18 samples.

Results

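Broad H3K4me3 domains are long, unbroken stretches of chromatin marked by trimethylation of lysine 4 on histone H3. Here they were the H3K4me3 peaks of the GFP library on chromosomes 1 to 19 that were at least 4000 bases wide and overlapped no H3K27me3 and no H3K9me3 peak of the GFP cells. There were 798 of them among 22967 autosomal GFP H3K4me3 peaks, and 23808 such peaks on all chromosomes. Peak width and the 2 repressive marks in the GFP lists chose the members, so that these values are given as a description. What the choice did not use were the acetylation lists and all Cre lists.

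The cells were mouse embryonic fibroblasts (MEFs) of mixed B6;129 background with a conditional knockout allele of Rb, the retinoblastoma tumour suppressor. All libraries, GFP included, come from cells with this allele. Cre cells were infected with Adeno-Cre, an adenovirus that delivers the recombinase deleting Rb. GFP cells were infected with Adeno-GFP and served as the control. Both were grown without the 4F reprogramming construct and expanded for at most 3 passages before chromatin immunoprecipitation and sequencing, and neither age nor the number of embryos is in the labels. The lists cover pan-acetylated H3 (H3Ac), H3K4me3, H3K9me3 and H3K27me3, with 1 library per mark and condition, each labelled biological replicate 3. Differences between Cre and GFP cells are therefore differences between single libraries, and no test was possible. Whether Rb was lost cannot be read from histone peaks, and fibroblast markers could not be checked because the lists hold no gene names.

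H3K4me3 is written by the SET1 and MLL complexes, mostly around active promoters, where it helps recruit chromatin remodellers and acetyltransferases. At most promoters it covers a short stretch downstream and upstream of the start site. In other studies the broadest domains tended to lie over genes that define a cell type, and broad H3K4me3 also occurs with Polycomb marks at silent developmental genes, an arrangement that the present choice leaves out. H3Ac is laid down by acetyltransferases at active promoters and enhancers, Polycomb complexes add H3K27me3 to silenced genes, and H3K9me3 marks heterochromatin and silenced repeats. In bulk cells, a mark present in fewer cells and a weaker mark in every cell cannot be told apart.

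The domains were the tail of a continuous width distribution. They made up 3.48% of the autosomal GFP H3K4me3 peaks and 10.7% of the bases under them, 4.15 of 38.9 Mb. Their median width was 4775 bases, with quartiles of 4288 and 5600, against a median of 1380 bases over all autosomal GFP H3K4me3 peaks. Of the 798 domains, 468 were under 5000 bases wide, 187 were from 5000 to under 6000, 107 from 6000 to under 8000, 25 from 8000 to under 10000, and 11 at least 10000. No gap marked the width limit: the 5 narrowest domains spanned 4001 to 4005 bases, and the 5 widest peaks left out by width were all 3988 bases or wider. H3Ac covered at least 95% of each of these 5 in both libraries, and their longest Cre H3K4me3 peaks spanned 3986 to 4844 bases.

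**Figure D1:**
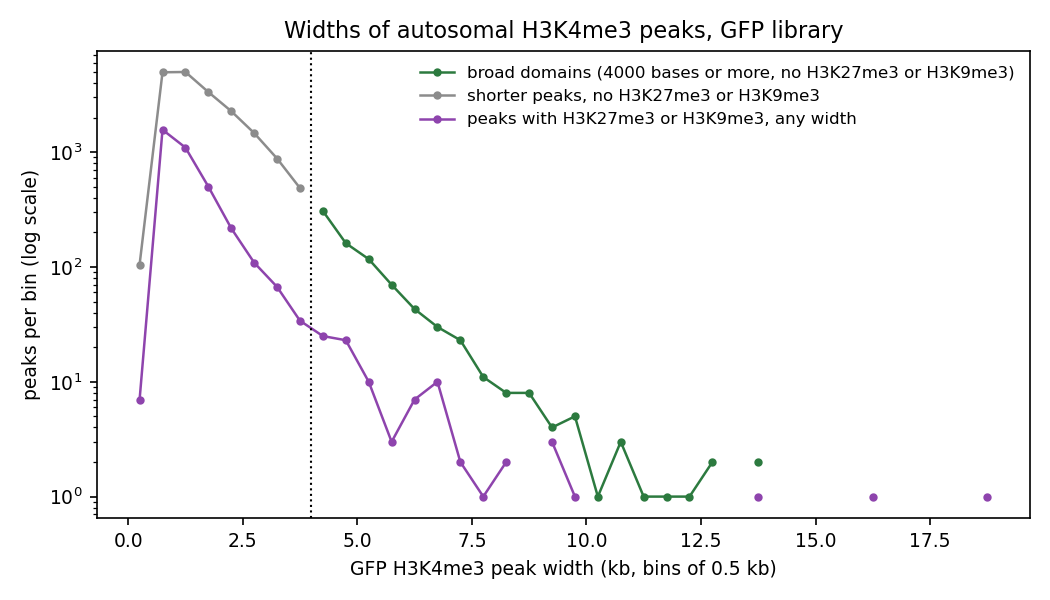
Number of autosomal GFP H3K4me3 peaks (log scale) by width in bins of 0.5 kb, for the 798 broad domains, shorter peaks without H3K27me3 or H3K9me3, and peaks with either mark; the dotted line is the 4000 base limit. The domains continue the fall of the shorter peaks without a break, and the 3 widest peaks among those with a repressive mark reach 13800, 16298 and 18773 bases.

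Of the 888 autosomal peaks of at least 4000 bases, 90 carried a GFP repressive mark and were left out. Of these, 41 overlapped H3K27me3 only, 41 overlapped H3K9me3 only and 8 overlapped both. Domain scores were of little use for ranking, since 755 of the 798 domains had a score of exactly 3100 and 3 had a higher one. The scores are the authors' own. Among the other autosomal H3K4me3 peaks, 16.7% scored 3100 or more. Only 7 domains scored below 1000, and the lowest had a score of 50.48.

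The widest domain spanned 13843 bases on chromosome 2 from 117937608 to 117951450 (build NCBIM37, positions counted from 1). Its longest Cre H3K4me3 peak spanned 11840 bases and covered 71.2% of it, and H3Ac covered 69.0% of it in the Cre and 99.4% in the GFP library. Both Cre marks stopped short of the GFP domain at its upper end, 2934 bases from the domain centre for H3K4me3 and 2634 for H3Ac. The second, of 13664 bases on chromosome 13 from 16102704 to 16116367, was covered by Cre H3K4me3 over 89.9%, and by H3Ac over 99.8% in the Cre and 100% in the GFP library. The third, of 12816 bases on chromosome 3 from 99055401 to 99068216, had a Cre H3K4me3 peak of 13114 bases, and H3Ac covered 99.1% of it in each library.

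Further down the ranking, a domain of 12498 bases on chromosome 3 from 58220670 to 58233167 was covered by Cre H3K4me3 over 91.0%, in 2 peaks. The domain of 11843 bases on chromosome 5 from 58105042 to 58116884 lay wholly within a Cre H3K4me3 peak of 12769 bases. Its acetylation was broken into 2 Cre and 5 GFP peaks, the largest number of GFP H3Ac peaks on any domain. The domain of 10520 bases on chromosome 9 from 41387045 to 41397564 was fully covered by H3K4me3 in the Cre library and by H3Ac in both. Its H3Ac peak was 13688 bases long in the Cre and 20105 bases in the GFP library. Of the 10 widest domains, 8 had H3K4me3 and H3Ac in both libraries, and the other two, neighbours on chromosome 4, had no H3Ac and are described with the exceptions.

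**Figure D2:**
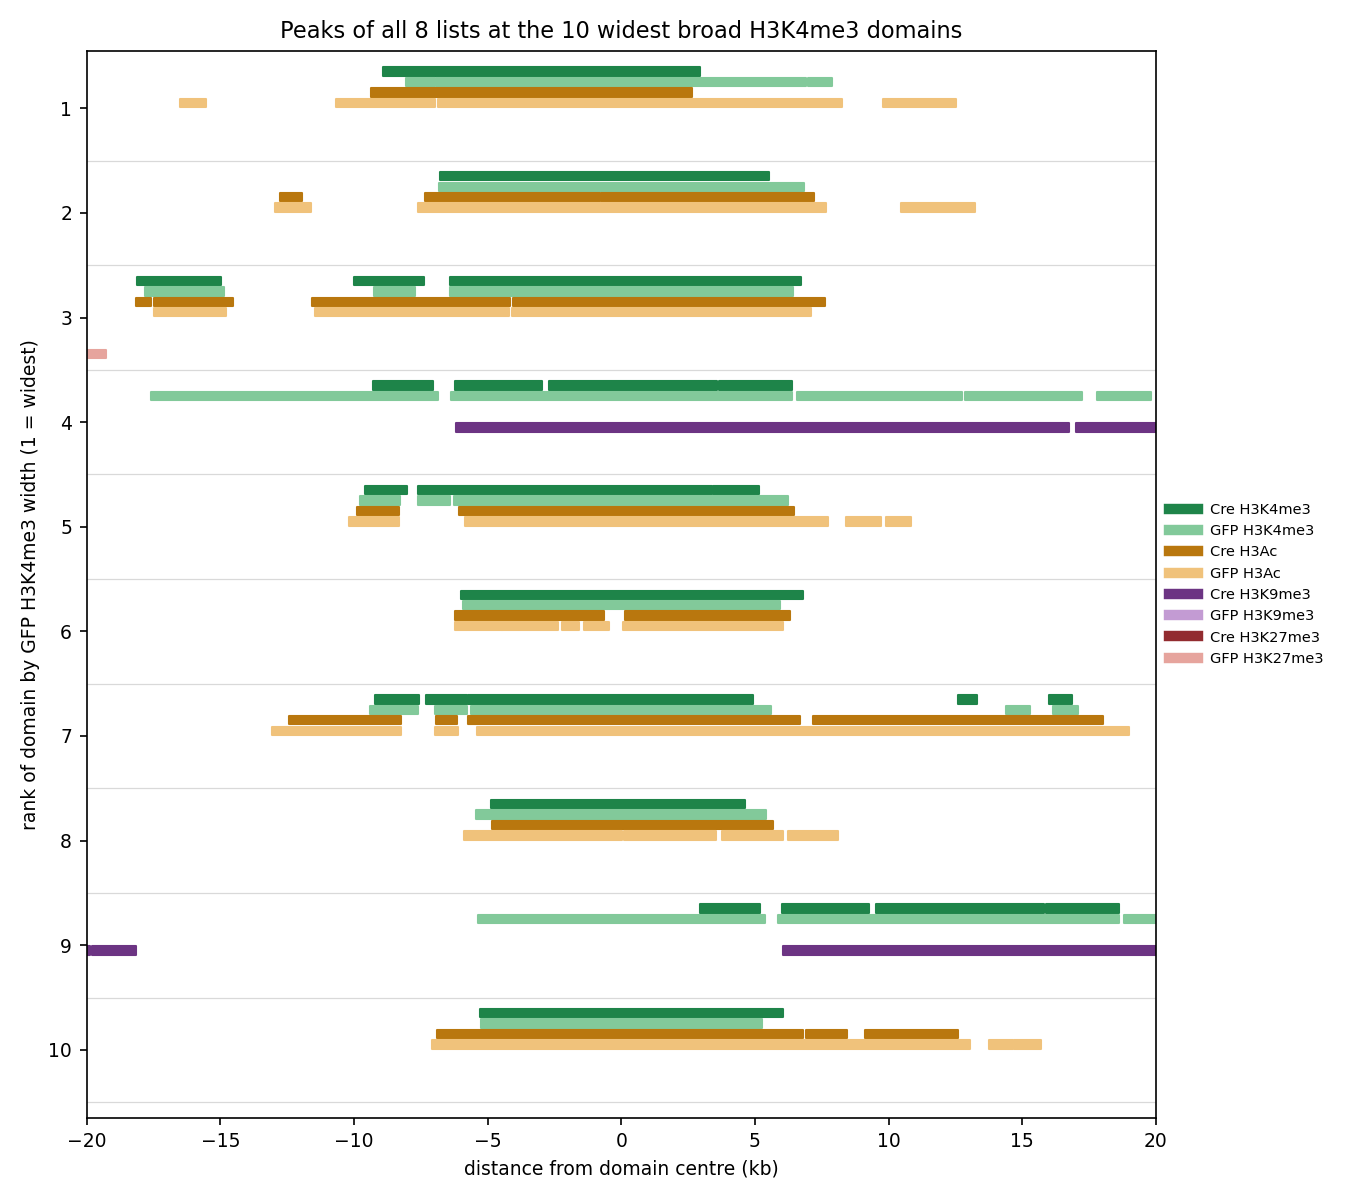
Peaks of all 8 lists within 20 kb of the centre of the 10 widest domains, ranked from top to bottom; the x axis is the distance from the domain centre in kb, and in each row the Cre list of a mark lies above the GFP list. At 8 domains H3K4me3 and H3Ac bars of both libraries overlie each other, while the domains ranked 4 and 9 have no H3Ac bar and a Cre H3K9me3 bar over or beside them.

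The question of acetylation was whether a long H3K4me3 domain is acetylated along its length or in part. Nearly all domains carried H3Ac, and over most of their bases. An H3Ac peak overlapped 792 of the 798 domains in the Cre library, where 82.5% of all autosomal GFP H3K4me3 peaks did, and 792 in the GFP library, where 80.5% did. Both shares were 99.2% with an exact 95% interval of 98.4 to 99.7. The same 792 domains had H3Ac in both libraries, and 6 had it in neither. Every interval given here reflects counting error alone, and neighbouring peaks are not independent.

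The acetylated share did not set the domains apart from peaks of intermediate width. Peaks of 2000 to under 4000 bases with the same exclusions had H3Ac in 99.5% of cases in the Cre (99.3 to 99.7) and 99.6% in the GFP library (99.4 to 99.8). Peaks under 2000 bases had it in 89.3% (88.8 to 89.8) and 87.7% (87.1 to 88.2). A wide region is touched by a peak more easily than a narrow one, so that the covered bases are the fairer measure. H3Ac covered a median of 98.4% of a domain in the Cre library, with quartiles of 93.7 and 100, and 98.6% in the GFP library, with quartiles of 95.3 and 100. Median coverage was 98.6% and 97.9% in peaks of 2000 to under 4000 bases, and 98.1% and 96.6% in peaks under 2000 bases. Coverage of at least 99% was reached by 358 domains in the Cre library, 44.9%, and by 364 in the GFP library, 45.6%. Over all autosomal GFP H3K4me3 peaks, 39.7% and 34.7% reached it. In peaks of 2000 to under 4000 bases 46.9% and 42.75% did, and in peaks under 2000 bases 45.5% and 39.2%. The Cre share of the domains thus lay slightly below that of both shorter classes. Within the domains, coverage showed no steady trend with width: the medians were 98.5% in the Cre and 98.5% in the GFP library under 5000 bases, 98.5% and 98.5% from 5000 to under 6000, 97.2% and 98.95% from 6000 to under 8000, and 99.1% and 99.7% from 8000 bases on. Coverage of the same domain in the Cre and GFP library was related with Spearman's rho of 0.538 and Pearson's r of 0.748 across the 798 domains, which share their GFP borders. The 6 domains without H3Ac in either library enter with no coverage in both, which can raise Pearson's r. The relation without them was not computed.

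Wide H3K4me3 with H3K9me3 was a different kind of region. Of the 41 wide peaks that overlapped GFP H3K9me3 only, 2 had an H3Ac peak in the Cre and 2 in the GFP library, 4.88% with an interval of 0.596 to 16.5. That interval lies far below the one for the domains. Wide peaks with H3K27me3 only were acetylated in 38 of 41 cases in the Cre and 39 of 41 in the GFP library, with intervals of 80.1 to 98.5% and 83.5 to 99.4%.

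**Figure D3:**
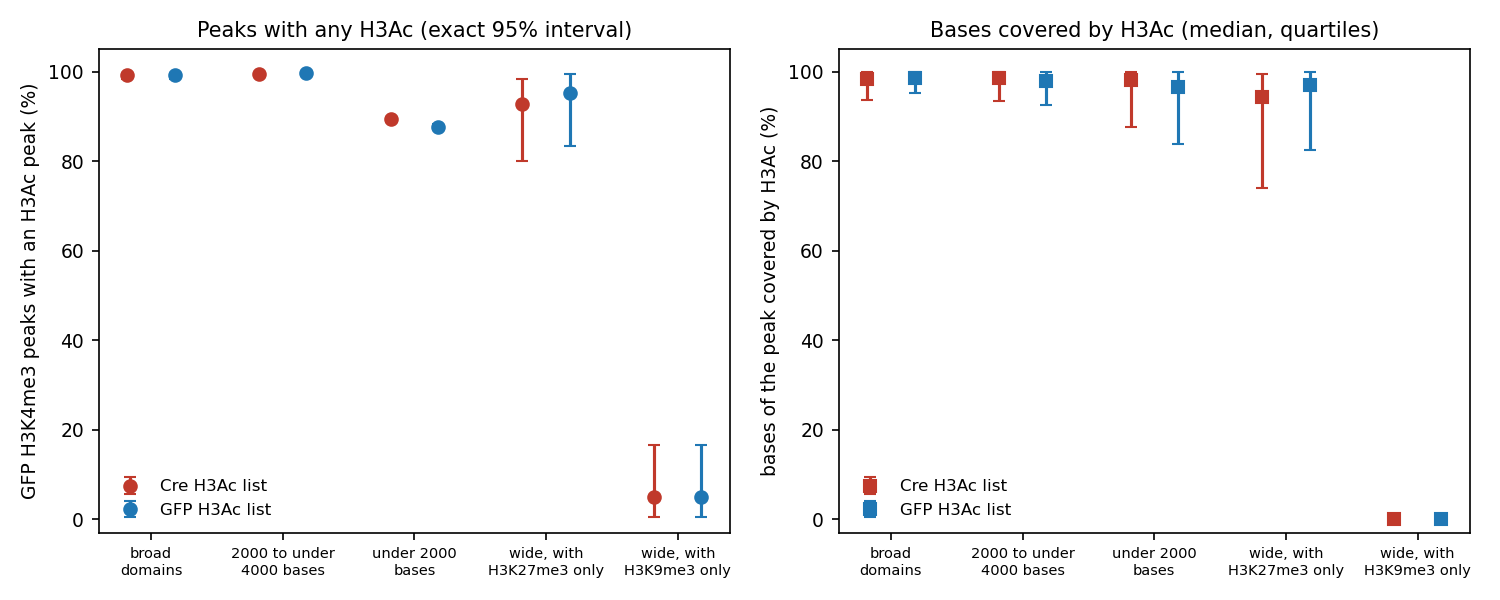
H3Ac on GFP H3K4me3 peaks by class, with the Cre list left of the GFP list: at left the percentage of peaks with any H3Ac peak (exact 95% interval), at right the percentage of bases covered (median and quartiles over peaks). The 798 domains and the shorter peaks lie at or near the top, and wide peaks with H3K9me3 only have a median of 0 in both libraries.

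Acetylation reached beyond the H3K4me3 edges more often than it fell short of them. H3Ac extended past both edges of 413 domains in the Cre and 482 in the GFP library, past 1 edge of 322 and 293, and lay wholly inside 57 and 17. Past both edges it extended at 51.8% of the domains in the Cre and 60.4% in the GFP library, where 38.3% and 34.6% of all autosomal GFP H3K4me3 peaks did. The shares in peaks of 2000 to under 4000 bases were 51.0% and 51.8%, so that the Cre share of the domains was close to theirs. Per edge, it extended beyond 72.5% of the domain edges in the Cre library, by a median of 516.5 bases, and beyond 79.4% in the GFP library, by a median of 707 bases. At a distance of 4000 bases on either side of the domain centre, H3Ac covered 35.8% of domains in the Cre library on each side, against 47.4% on the lower and 45.0% on the upper side in the GFP library. The Cre H3Ac list was shorter as a whole, with 41827 autosomal peaks over 74.5 Mb against 47904 over 88.1 Mb. The part of this in the shorter reach was not tested.

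Most domains lay under 1 H3Ac peak: 553 in the Cre and 529 in the GFP library, while 239 and 263 were covered by 2 or more, 29.9% and 33.0% of the domains. Over all autosomal GFP H3K4me3 peaks, which are narrower, 6.93% met 2 or more H3Ac peaks in the Cre and 8.17% in the GFP library, and in peaks of 2000 to under 4000 bases 18.3% and 22.7%. The longest H3Ac peaks were often found there. Among H3Ac peaks of at least 10000 bases, 46 of 76 overlapped a domain in the Cre library, 60.5% (48.7 to 71.6), and 68 of 121 in the GFP library, 56.2% (46.9 to 65.2). Over all autosomal H3Ac peaks the shares were 2.52% in the Cre and 2.26% in the GFP library. Long peaks of any kind meet long domains more easily, and no chance level was computed. Of the same H3Ac peaks of at least 10000 bases, 69 of the Cre and 98 of the GFP peaks overlapped any autosomal GFP H3K4me3 peak.

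**Figure D4:**
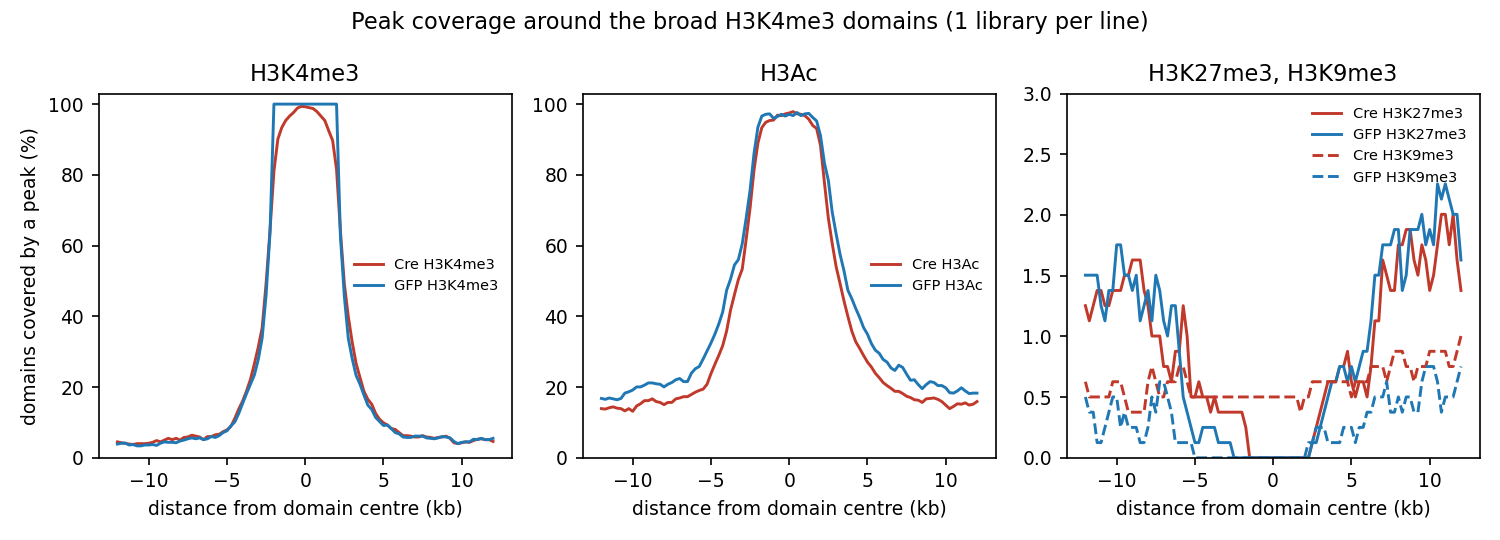
Percentage of the 798 domains covered by a peak at each distance from the domain centre (kb, steps of 250 bases), for H3K4me3, H3Ac, and H3K27me3 (solid) with H3K9me3 (dashed) on a smaller scale; Cre lines are red and GFP lines blue, 1 library each. GFP H3K4me3 is at 100% within 2 kb and both GFP repressive marks are at 0 there by choice of the domains; at 4 kb Cre H3Ac covers 35.8% on each side and GFP H3Ac 47.4% and 45.0%.

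The next question was whether the domains were found in Cre-infected cells. In the Cre library an H3K4me3 peak overlapped 796 of the 798 domains, 99.7% (99.1 to 99.97), where 89.4% of all autosomal GFP H3K4me3 peaks had one. The share was 99.6% (99.4 to 99.8) for peaks of 2000 to under 4000 bases and 91.7% (91.2 to 92.2) for peaks under 2000 bases with the same exclusions. Cre H3K4me3 covered a median of 96.6% of a domain, with quartiles of 89.0 and 100, and under 50% of 5 domains. The edges were close: for the 736 domains with 1 Cre peak, the median edge lay 187 bases from its GFP counterpart, and 881 of 1472 edges lay within 250 bases. Edges over 1000 bases apart numbered 199, of which 114 lay farther out and 85 farther in in the Cre library.

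Most domains were about as wide in the Cre as in the GFP library. The longest Cre peak was 0.991 times as wide as the GFP domain in the median, with quartiles of 0.894 and 1.08, wider at 368 domains and narrower at 426. Shorter GFP peaks had wider counterparts, with a median ratio of 1.03 at 2000 to under 4000 bases and 1.18 under 2000 bases. Since the domains were chosen for large GFP width, a lower ratio is partly fixed by the choice. When regions were chosen by the geometric mean of both widths, 882 regions had a median ratio of 1.03. That choice sets single GFP peaks against the longest Cre peak, so that GFP peaks under 1 joined Cre peak each count with a raised ratio. For the domains, the span of all Cre peaks gave a median ratio of 1.0. Summing all peaks joined through overlaps in each library gave 0.990. The direction thus depended on the choice and the measure. Among the domains, GFP and longest Cre width were related with Spearman's rho of 0.565 and Pearson's r of 0.624 over 796 domains. This is a relation across regions of 1 library each, over a range cut off at 4000 bases.

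Large changes of width were few and mostly came with joined or split peaks. The Cre peak was at least 1.5 times wider at 31 domains, 3.89%, where 21.0% of all shared autosomal peaks were, and at least 1.5 times narrower at 50, 6.28%, where 1.94% were. The choice of wide GFP peaks bears on both shares, and regions chosen by the geometric mean numbered 114 and 22. In that choice too, GFP peaks under 1 joined Cre peak count singly. Of the 31 wider ones, 25 had a Cre peak that was joined through overlaps to other GFP peaks, and of the 50 narrower ones, 32 were covered by 2 or more Cre peaks. In all, 60 domains met 2 or more Cre peaks, 7.52%, where 1.79% of all autosomal GFP H3K4me3 peaks did. Where exactly 1 GFP peak met 1 Cre peak, at 639 domains, 6 were wider and 18 narrower by this measure, and the median ratio was 0.984. When all peaks joined through overlaps at a domain were summed in each library, 6 domains had at least 1.5 times more H3K4me3 bases in the Cre library and 21 at least 1.5 times fewer.

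The largest ratio, 4.42, was at a domain of 4040 bases on chromosome 7 from 13419131 to 13423170. A Cre peak of 17857 bases, the longest autosomal H3K4me3 peak of the Cre list, covered it. It also overlapped a neighbouring GFP H3K4me3 peak of 13800 bases, from 13423476 to 13437275, which was left out of the domains because it overlapped H3K9me3. These 2 GFP peaks already covered 97.4% of the Cre peak. On chromosome 6 from 52171860 to 52176069, a domain of 4210 bases met a Cre peak of 10551 bases, of which 5 GFP peaks covered 95.3%, and the longest H3Ac peak there was 8127 bases in the Cre and 3955 bases in the GFP library. The domain from 63378871 to 63383412 on chromosome 13 lay 796 bases from the next domain, and a Cre peak of 10461 bases covered it. GFP peaks lay under 91.5% of that Cre peak. Its H3Ac coverage was complete in each library. On chromosome 2 from 115885997 to 115891546 a domain of 5550 bases met a Cre peak of 12466 bases, and 2 GFP peaks, the domain and a neighbour of 6693 bases that was left out for its H3K27me3, covered 98.2% of it. At the fifth, on chromosome 12 from 81211061 to 81215314, 3 GFP peaks covered 84.97% of a Cre peak of 9190 bases. At these 5 domains the large ratio thus came with GFP peaks that were separate in the GFP list and under 1 peak in the Cre list.

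Among domains with 1 peak in each library, picked after their values were seen, the largest ratio, 1.85, was on chromosome 15 from 85688707 to 85692773, with 7511 bases in the Cre and 4067 in the GFP library. On chromosome 10 from 117141789 to 117147297 the widths were 9260 bases in the Cre and 5509 in the GFP library, so that the Cre peak was 1.68 times as wide. Acetylation covered both regions by at least 96% in each library: 100% in the Cre and 96.1% in the GFP library at the first, and 97.9% and 99.7% at the second. On chromosome 5 from 137540448 to 137548437 the width was smaller in Cre cells, 4146 bases against 7990, and H3Ac covered 68.6% of the domain in the Cre and 100% in the GFP library.

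**Figure D5:**
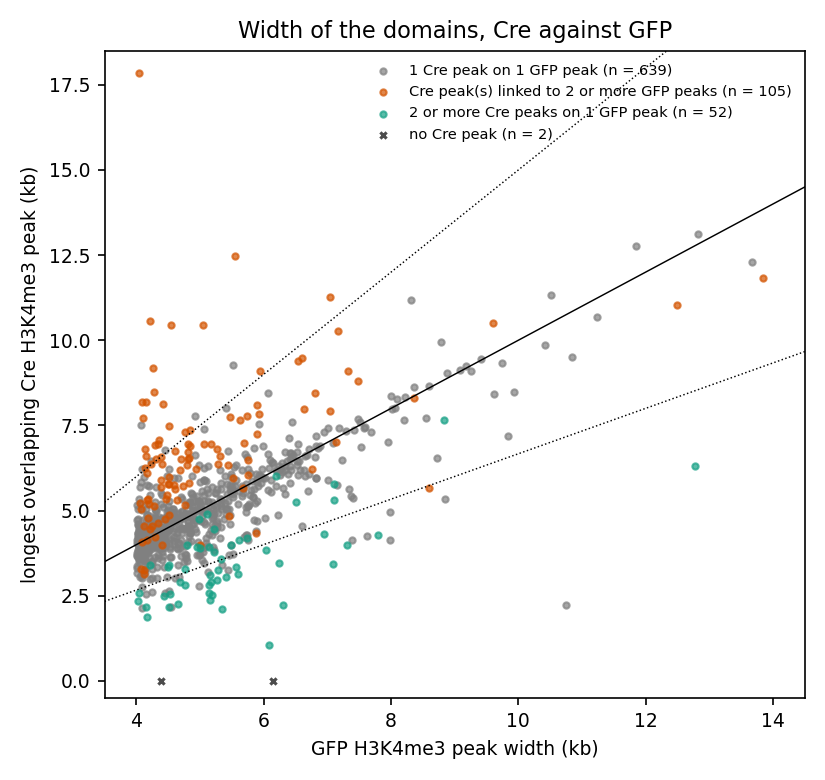
Width of the longest overlapping Cre H3K4me3 peak against the GFP width (kb) for the 798 domains, 1 point per domain, coloured by how the peaks of the 2 libraries correspond; the solid line is equal width and the dotted lines are a factor of 1.5. The 639 domains with 1 peak in each library follow the line of equal width, while most points beyond the dotted lines are joined or split peaks.

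At some domains Cre H3K4me3 was broken up or narrow. On chromosome 16 from 32656780 to 32662864, a domain of 6085 bases had 2 Cre H3K4me3 peaks, the longer of 1057 bases, a ratio of 0.174, and they covered 33.3% of it. H3Ac covered 98.4% of this domain in the Cre and 100% in the GFP library, and its longest H3Ac peak was 5187 bases in the Cre and 10273 in the GFP library. On chromosome 13 from 21900015 to 21906319 a domain of 6305 bases was split into 3 Cre peaks that together covered 92.1% of it. H3Ac covered 65.9% of it in the Cre and 74.1% in the GFP library, in 2 and 3 peaks. On chromosome 3 from 142052897 to 142058240, 3 Cre peaks covered 76.0% of 5344 bases and 1 H3Ac peak covered the whole domain in both libraries.

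The width limit itself divided the libraries. The longest Cre peak reached 4000 bases at 622 of the 798 domains, 77.9%, where 7.04% of all autosomal GFP H3K4me3 peaks had such a counterpart. The share was 70.3% for domains under 5000 bases, 84.0% from 5000 to under 6000, 94.4% from 6000 to under 8000 and 97.2% from 8000 bases on. Since the domains were chosen by this limit in the GFP library, the contrast and the rise with width are partly fixed by the choice. At the 174 domains with a shorter Cre peak, the median width was 3630 bases in the Cre and 4326 bases in the GFP library.

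The same rule applied to the Cre lists gave more domains, 1091 of 21850 autosomal Cre H3K4me3 peaks, or 4.99%. Of these, 611 overlapped a GFP domain, 56.0% (53.0 to 59.0), where 3.93% of all autosomal Cre H3K4me3 peaks did, and of the GFP domains 612 overlapped a Cre domain, 76.7% (73.6 to 79.6). A GFP H3K4me3 peak was present at 1088 of the 1091 Cre domains, where 87.4% of all autosomal Cre H3K4me3 peaks had one. At 470 of the Cre domains the longest GFP peak was under 4000 bases, with a median of 3195. Taken from this side, the Cre width was 1.13 times the GFP width in the median. All 1091 Cre domains had Cre H3Ac and 1088 had GFP H3Ac. The Cre H3K4me3 peaks were wider over the whole list, with a median of 1607 bases against 1380 on the autosomes, and the number of reads behind either list was unknown. How far this accounts for the larger number of Cre domains was not tested.

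The share of domain bases under H3Ac peaks changed little between the libraries. It lies near its ceiling and does not measure the level of acetylation. Where it differed by 20 percentage points or more, it was more often lower in the Cre library. This direction is partly fixed by the measure. GFP H3Ac coverage had a lower quartile of 95.3%, so that most domains had no room to be 20 points higher in the Cre library. The borders were also those of peaks chosen for large GFP width. Over all autosomal GFP H3K4me3 peaks the direction was the opposite. The covered share differed by less than 20 percentage points at 753 domains. It was at least 20 points lower in the Cre library at 41 domains, 5.14% (3.71 to 6.91), where 3.09% of all autosomal GFP H3K4me3 peaks were, and at least 20 points higher at 4, 0.501% (0.137 to 1.28), where 5.6% were. Peaks of 2000 to under 4000 bases had 110 of 5102 lower, with an interval of 1.78 to 2.59%, and 65 higher, with 0.985 to 1.62%. At the 41 domains, Cre H3K4me3 covered a median of 79.5%, with quartiles of 71.8 and 90.3, against 97.1% at the other 757. The width ratio there was 0.805 in the median, against 0.994.

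Both marks are given for the domains with the largest differences, chosen after their values were seen. On chromosome 19 from 36189679 to 36194809, H3Ac covered 49.1% of the domain in the Cre and 94.8% in the GFP library, and the Cre H3K4me3 peak was 3203 bases wide against 5131. The next, on chromosome 3 from 62406085 to 62410241, had H3Ac over 24.0% in the Cre and 66.2% in the GFP library, and H3K4me3 widths of 2539 and 4157 bases. On chromosome 1 from 51530849 to 51535294, H3Ac covered 56.8% in the Cre and 98.7% in the GFP library, and the H3K4me3 widths were 2578 and 4446 bases. On chromosome 1 from 45554788 to 45561171, by contrast, H3Ac covered 63.7% in the Cre and 100% in the GFP library while the H3K4me3 widths were close, 6076 and 6384 bases. On chromosome 11 from 62633264 to 62638476, H3Ac covered 63.4% in the Cre and 100% in the GFP library, with Cre H3K4me3 over 72.4% of the domain. The largest difference in the other direction was on chromosome 3 from 89081595 to 89085756, with 98.97% in the Cre and 63.5% in the GFP library, and H3K4me3 widths of 4883 and 4162 bases.

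Repressive marks in Cre cells were rare on the domains. A Cre H3K27me3 peak overlapped 4 of 798, 0.501% (0.137 to 1.28), where 12.7% of all autosomal GFP H3K4me3 peaks had one, most of them peaks that the choice of domains left out. With the same exclusions, the shares were 0.764% (0.544 to 1.04) for peaks of 2000 to under 4000 bases and 2.80% (2.52 to 3.09) for peaks under 2000 bases. All 4 overlaps were partial. On chromosome 13 from 72760800 to 72766045, the Cre H3K27me3 peak had a score of 244.3 and covered 13.4% of a domain of 5246 bases, which kept H3Ac over 97.2% in the Cre and 95.3% in the GFP library. The other three lay on chromosome 1 from 77508015 to 77513194, chromosome 1 from 155586370 to 155590839, and chromosome 14 from 84841829 to 84846100. Cre H3K27me3 covered 1.37%, 11.8% and 9.57% of them. A GFP H3K27me3 peak lay 114 bases from the domain on chromosome 13, and 239, 48839 and 306 bases from these 3 in the same order, so that at 3 of the 4 domains GFP H3K27me3 was next to the border. The domain on chromosome 14 had a Cre H3K4me3 peak of 8479 bases against 4272 bases in the GFP library.

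H3K27me3 also lay farther from the domains than from shorter peaks. The nearest H3K27me3 peak was at a median of 82920 bases from a domain for Cre and 74310 bases for GFP peaks. From peaks of 2000 to under 4000 bases it was at 52650 and 45310 bases, and from peaks under 2000 bases at 48090 and 40200 bases. Within 10000 bases it was found for 7.52% of the domains among Cre peaks and 8.52% among GFP peaks. For peaks of 2000 to under 4000 bases these shares were 17.6% and 19.1%, and for peaks under 2000 bases 23.8% and 25.9%. All 3 classes exclude peaks that overlap GFP H3K27me3. This exclusion acts over a longer stretch for a wide peak, and the GFP distances come from a list that the choice used. How far the choice accounts for the larger distances was not tested.

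H3K9me3 and the absence of acetylation came together at the exceptions. A Cre H3K9me3 peak overlapped 4 domains, 0.501% (0.137 to 1.28), where 2.83% of all autosomal GFP H3K4me3 peaks had one, peaks left out for GFP H3K9me3 included. With the same exclusions the shares were 0.255% (0.136 to 0.435) for peaks of 2000 to under 4000 bases and 0.456% (0.349 to 0.585) for peaks under 2000 bases, so that the domains' interval overlaps both. The Cre H3K9me3 list was short, with 3516 autosomal peaks against 9574 in the GFP list. Apart from a domain on chromosome 12, the 4 overlapped domains met the same Cre H3K9me3 peak of 22933 bases, while the interval takes them as independent. All 4 were among the 6 domains without H3Ac. These 6 lay at only 3 places, and 4 of them were neighbours on chromosome 4 between 145711805 and 145746649. In this stretch of 34845 bases, H3K4me3 peaks covered 14515 bases in the Cre and 34052 bases in the GFP library. H3K9me3 peaks covered 23153 bases in the Cre library and none in the GFP library, where the nearest one lay 19919 bases away. The domains filled nearly all of this stretch and were chosen for GFP H3K4me3 without GFP H3K9me3 or H3K27me3. The GFP values of these marks were thus largely fixed by the choice, and their difference from the Cre library cannot be read as a gain or loss. Neither library had an H3Ac or H3K27me3 peak there.

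In order along chromosome 4, the 4 neighbouring domains were 10753, 12770, 6144 and 4385 bases wide. Their GFP H3K4me3 scores were 233.5, 1532, 231.7 and 50.48. The first, from 145711805 to 145722557, had a Cre H3K4me3 peak of 2240 bases with a score of 55.18 and no Cre H3K9me3, which began 677 bases away. The second, from 145723031 to 145735800, was covered by Cre H3K4me3 over 96.1%, in 3 peaks, and by Cre H3K9me3 over 98.4%. The remaining pair, from 145735998 to 145742141 and from 145742265 to 145746649, were the only domains without Cre H3K4me3, and Cre H3K9me3 covered 100% and 94.0% of them.

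The fifth domain without H3Ac lay on chromosome 12 from 20247446 to 20254206. It was 6761 bases wide, with a Cre H3K4me3 peak of 6211 bases and a Cre H3K9me3 peak over its whole length, whose score was 91.02. The sixth, on chromosome 6 from 83482139 to 83486688, was 4550 bases wide in the GFP and 2177 bases in the Cre library and had no H3K9me3 in either. A Cre H3K27me3 peak lay 158 bases from it. These 6 were picked for their lack of H3Ac, so that their difference from the 792 acetylated domains is given by definition. Among the wide peaks with GFP H3K9me3 only, 39 of 41 also had no H3Ac in each library. However, the first domain on chromosome 4 and the domain on chromosome 6 overlapped no H3K9me3 peak in either library.

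The domains were spread over all 19 autosomes and mostly lay far from other domains, though 53.26% had some other GFP H3K4me3 peak within 10000 bases. They made up between 1.77% of GFP H3K4me3 peaks on chromosome 8 (1.11 to 2.67), with 22 domains, and 4.86% on chromosome 1 (3.77 to 6.17), with 64. Only for chromosomes 1, 3, 5 and 8 did the interval leave out the autosomal share of 3.48%, and the 19 intervals were not adjusted for their number. The nearest other domain was at a median distance of 579700 bases, and 30 domains had one within 10000 bases. Other GFP H3K4me3 peaks were close more often: 262 domains, 32.8%, had one within 1000 bases, as had 33.0% of the peaks of 2000 to under 4000 bases and 55.0% of those under 2000 bases. When peaks within 1000 bases were joined before the widths were taken, 1787 domains met the rule in place of 798.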

How the data were processed

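The 8 histone peak lists were used, 1 per mark and condition, and the other 10 of 18 samples were not analysed here. The build is NCBIM37 and the peak caller named is MACS 1.4.1, per the submitters' processing notes, which also list BWA (aligner) and bedtools 2.16.2. The deposited lists give chromosome, start, end, name and a score of the authors without header or unit, lowest at 50 to 50.02, which was used only within a list. Peaks were called per library. Control library, duplicate handling and read depth are not given in the sources used here, and peak widths depend on them.

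Overlap meant at least 1 base. Comparison classes were GFP H3K4me3 peaks of 2000 to under 4000 bases and under 2000 bases with the same exclusions, and wide peaks with a repressive mark. Shares carry exact Clopper-Pearson 95% intervals. Simulated intervals with known overlaps were used to check the code. Python 3.11.15, NumPy 2.4.6, pandas 2.3.3, SciPy 1.17.1 and matplotlib 3.10.9 were used. Members, classes and the rule for named regions (the 10 widest, and up to 5 each with the most extreme width ratio, without Cre H3K4me3, without GFP H3Ac, with Cre repressive marks and nearest the limit) were chosen with earlier results of these data known. No gene or sequence was attached, because the tables at hand are on GRCm38.p6 and coordinates were not converted.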

Additional observations from a re-analysis of the deposited data

Results flagged for a closer look

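Chromosome X and unplaced sequence lay outside the choice of domains. There, H3K4me3 peaks of at least 4000 bases with no H3K27me3 or H3K9me3 of the same library numbered 26 on chromosome X in the Cre and 27 in the GFP library, and 5 on unplaced sequence in the Cre and 1 in the GFP library. These counts came up because the data were not used in any comparison, and the difference between libraries was not tested.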

How the results depend on the processing

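Of 87 values recomputed under 9 settings, 54 stayed within the interval of the reported value (for counts, within 1.5 times) and 33 moved. The numbers of domains were 1787 with peaks merged within 1000 bases, 2163 with a width of at least 3000 and 143 with at least 6000. The Cre to GFP width ratio was 1.002 at 3000 bases and 1.03 with regions chosen by geometric mean width. Domains at least 1.5 times wider in Cre numbered 114 with the geometric mean, 101 at 3000 bases and 1 at 6000 bases. Those 1.5 times narrower numbered 22, 92 and 16 in the same order, and 20 with the span of all Cre peaks. Bases covered by Cre H3K4me3 were 97.5% with merged peaks and 97.3% at 3000 bases. For Cre H3Ac they were 100% with merged peaks, 97.5% at 6000 bases and 98.0% with no exclusion of repressive marks. For GFP H3Ac they were 100% with merged peaks, 98.2% at 3000 bases and 99.1% at 6000 bases. Domains with H3Ac in the Cre library made up 93.8% with no exclusion, 99.8% with merged peaks and 97.2% at 6000 bases. In the GFP library these shares were 93.9%, 99.8% and 97.2%. The share with Cre H3K4me3 was 100% with merged peaks. The share with Cre H3K27me3 was 4.96% with no exclusion and 0% at 6000 bases and where 50% of the domain had to be covered. The share with Cre H3K9me3 was 5.52% with no exclusion, 0.112% with merged peaks and 2.10% at 6000 bases. Each width setting changes the members by construction, and the cause of the other shifts was not tested. The settings with the span and the geometric mean were chosen after the data were seen. The setting of 50% overlap gave no value for the number of domains or for covered bases. With 1 library per mark and condition, no library could be left out. No paired analysis was possible because each group holds 1 library and no result comes from a test. Read depth was unknown, and a score saturated at 3100 for most domains limits any ranking by strength.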
